A study of Mus musculus with 9 samples.

Results

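The genes described here were 9 transcription factors that direct naive CD4+ T cells into T helper lineages: Tbx21, Gata3, Rora, Bcl6, Maf, Stat4, Stat6, Eomes and Batf. They were taken by symbol, for their known roles in these lineages, from a table of 20926 genes measured in blood RNA. Earlier results of these data were known when they were chosen. All 9 were found in the table and passed the minimum level for testing. Male DBA/1 mice, labelled as 7-week-old, made up 3 groups of 3 libraries each. The Ctrl group was not irradiated and had no arthritis. The CIA group had collagen-induced arthritis, a model of rheumatoid arthritis raised by injecting chick type II collagen in complete adjuvant followed by a booster in incomplete adjuvant, and was not irradiated. The CIA+THz group had the same arthritis, and its swollen ankles were exposed to 0.1 THz radiation for 30 min a day over 14 days under isoflurane anaesthesia. Whether Ctrl mice received adjuvant, and whether Ctrl or CIA mice were anaesthetised, is not given in the sources used here, so irradiation and the anaesthesia that went with it cannot be told apart. Nothing in the labels says whether a library is 1 mouse or a pool, and p-values measure the spread between these libraries.

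T helper cells are made when a naive CD4+ T cell receives a cytokine signal together with its antigen. STAT proteins carry the cytokine signal to the nucleus, where they help to switch on a lineage factor that fixes the cytokines the cell will make. Stat4 acts downstream of interleukin-12 and Tbx21 (T-bet) is the lineage factor of the T helper 1 cells, which make interferon gamma. Stat6 acts downstream of interleukin-4 and Gata3 is the lineage factor of the T helper 2 cells. Rora takes part in the interleukin-17-making T helper 17 lineage, Bcl6 is the factor of the follicular helper cells that assist B cells, and Maf and Batf act in several of these lineages. Eomes is a T-box relative of Tbx21, and both are also made by NK cells. Blood holds many other cells that make some of these factors, Stat6 and Bcl6 above all, so their RNA in whole blood is not that of T helper cells alone.

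The promoters of the 2 members that passed a test in these data, Bcl6 and Batf, are shown so that their regulatory sequence can be read beside their values. RefSeq windows on GRCm38.p6, each running from 250 bases before a transcript start to 50 bases after it, were matched to 8 of the 9 members, and the 8 had 10 windows. Maf was not matched. Capitals mark matches to the motifs that were searched on both strands.
Bcl6, start 1, chr16:23988803-23989102, minus strand: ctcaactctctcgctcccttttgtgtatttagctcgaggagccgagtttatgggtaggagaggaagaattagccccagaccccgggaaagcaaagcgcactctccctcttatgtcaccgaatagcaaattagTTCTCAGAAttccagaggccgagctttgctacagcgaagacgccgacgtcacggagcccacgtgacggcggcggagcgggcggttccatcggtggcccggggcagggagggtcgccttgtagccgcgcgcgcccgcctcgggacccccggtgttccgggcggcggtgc
Bcl6, start 2, chr16:23981234-23981533, minus strand: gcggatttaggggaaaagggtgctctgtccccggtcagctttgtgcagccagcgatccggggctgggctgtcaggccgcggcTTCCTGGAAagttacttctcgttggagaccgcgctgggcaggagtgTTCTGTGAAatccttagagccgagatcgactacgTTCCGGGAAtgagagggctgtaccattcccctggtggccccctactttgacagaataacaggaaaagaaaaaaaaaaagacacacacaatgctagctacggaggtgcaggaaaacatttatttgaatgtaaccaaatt
Batf, chr12:85686470-85686769, plus strand: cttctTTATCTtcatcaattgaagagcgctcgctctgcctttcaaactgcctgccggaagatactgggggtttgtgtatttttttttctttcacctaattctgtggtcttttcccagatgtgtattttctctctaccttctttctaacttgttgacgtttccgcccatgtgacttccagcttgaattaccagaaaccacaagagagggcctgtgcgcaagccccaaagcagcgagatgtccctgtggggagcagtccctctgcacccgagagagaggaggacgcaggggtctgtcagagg
The second Bcl6 window lies inside the gene, which GENCODE places on chromosome 16 from 23965052 to 23988852. Batf lies on chromosome 12 from 85686669 to 85709087. In the same annotation Tbx21 is on chromosome 11 from 97098071 to 97115331, Gata3 on chromosome 2 from 9857078 to 9890034, Rora on chromosome 9 from 68653786 to 69388246, and Maf on chromosome 8 from 115682942 to 115707794. Stat4 is on chromosome 1 from 51987148 to 52107189, Stat6 on chromosome 10 from 127642986 to 127660957, and Eomes on chromosome 9 from 118478212 to 118486132. All 9 are protein-coding, and another annotated gene shared 26.7% of the exon bases of Stat4 (Gm28177, same strand) and at most 5.34% of those of any other member, so reads on these bases could be assigned to either gene. In Bcl6 the capitals are TTCNNNGAA, the mirrored site that STAT proteins recognise, and this motif was held by 8.29% of all 32817 windows of the same length. The first window has 1 match, at position -118 counted from the start, and the second has 3, at positions -168, -122 and -88. In Batf the capitals mark AGATAA on the opposite strand, at position -245, which is the motif of Gata3 and its relatives and was held by 11.2% of all windows. The related STAT motif with a 4-base spacer (6.94% of windows), the T-box motif AGGTGTGA (1.27%) and the AP-1 motif TGANTCA (7.81%) were in none of the members' windows. AGGTCA, which ROR proteins recognise, was in 1 window of Stat4 and in that of Stat6, and in 16.3% of all windows. These matches are letters in a window and were not tested as binding sites.

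The values are FPKM, in which the reads of a gene are divided by its transcript length and by the size of the library, so that levels of different genes can be set side by side. Each library was divided by 1 scaling factor, between 0.847 and 1.24, and levels below are this rescaled FPKM. FPKM holds no read counts, so the number of reads behind a value is unknown and no counting interval can be given. Although the labels name blood leukocytes, Alas2, a gene of red cell precursors, took a large share of the summed FPKM. This was between 14.4% and 16.6% in Ctrl, 16.3% and 16.7% in CIA, and 11.4% and 14.0% in CIA+THz. All 11 erythroid markers tested were lower in CIA+THz than in Ctrl (median log2 fold change -0.61), and 8 of 11 were lower than in CIA (median -0.075). Of 10 platelet markers, 9 were lower in CIA+THz than in Ctrl and 9 lower than in CIA. The part of these cells in the values of the factors was not tested. T cell markers were present in every library, with Cd3e between 25.3 and 38.3 and Cd4 between 38.4 and 60.0. The rescaling bears on directions, because FPKM as deposited raised the median gene by 0.27 on the log2 scale in CIA+THz versus CIA and by 0.30 in CIA+THz versus Ctrl.

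The 9 factors spanned a wide range of levels. Averaged over the 9 libraries, Stat6 was highest at 54.1, followed by Bcl6 at 27.3, Batf at 8.51 and Stat4 at 5.51. Maf at 2.66, Rora at 2.52 and Tbx21 at 2.30 came next, and Gata3 at 1.36 and Eomes at 1.21 were lowest. The ranges over the libraries did not overlap between Stat6 and Bcl6, between Bcl6 and Batf, or between Stat4 and Maf. Every other neighbouring pair in this order overlapped, so Batf and Stat4, and likewise Maf, Rora, Tbx21, Gata3 and Eomes, could not be ranked by these ranges. Compared within the same library, Batf stood above Stat4 in 8 of the 9 and Tbx21 above Gata3 in 7. Maf stood above Rora, Rora above Tbx21, and Gata3 above Eomes, in 6 each. The coefficient of variation over all libraries was 11.4% for Stat6 and 16.0% for Bcl6, and it was between 21.1% and 36.0% for the 7 less abundant factors.

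**Figure D1:**
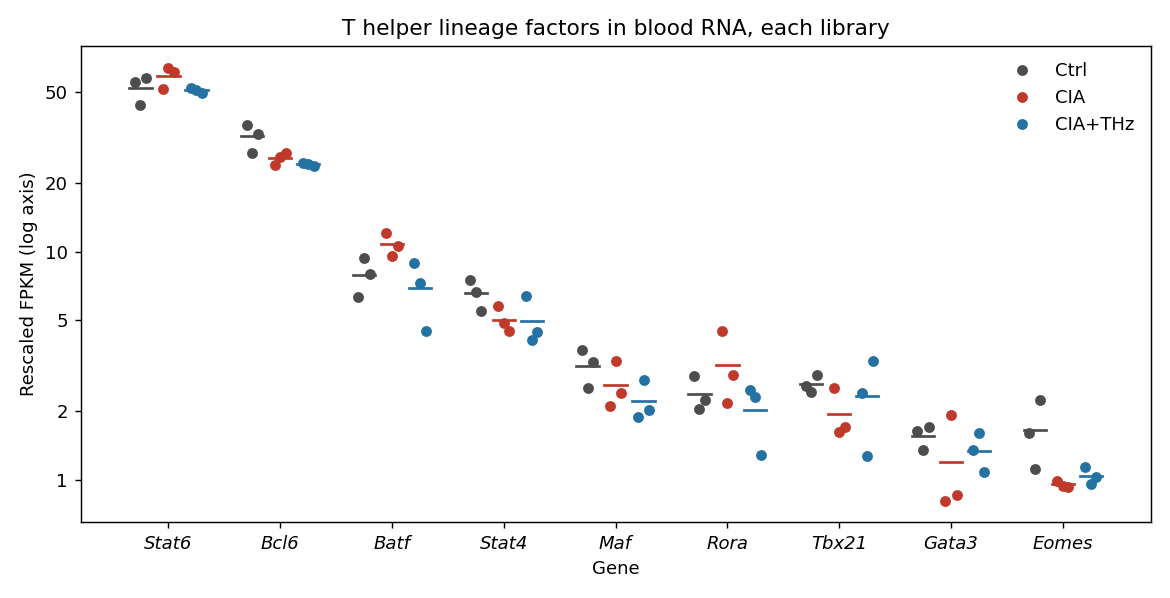
Rescaled FPKM (log axis) of the 9 factors in each Ctrl, CIA and CIA+THz library. Points are libraries and lines are group means. Stat6 and Bcl6 stand above the other factors in every library, the 3 CIA libraries lie above the CIA+THz libraries for Batf, and the groups intermingle for most other genes.

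Between pairs of groups a gene passed the criterion when its unadjusted p in limma's test was under 0.05 and its log2 fold change was beyond 0.67 in either direction. In CIA versus Ctrl, 0 of the 9 factors passed, beside 9.04% of the 12366 genes tested. At an unadjusted p under 0.05 alone 0 factors passed as well, beside 17.3% of all genes. In CIA+THz versus CIA, 1 factor passed, Batf, which was lower, beside 4.54% of all genes and 1.6% that passed as lower. In CIA+THz versus Ctrl, 0 passed, beside 7.88% of all genes, and 1, Bcl6, had an unadjusted p under 0.05 by limma, beside 18.1%. Across the 3 groups limma's F-test gave an unadjusted p under 0.05 for 1 factor, Bcl6, beside 21.3% of all genes. After the Benjamini-Hochberg adjustment over all genes 0 factors passed in any of these comparisons, and the shares of all genes that did were 0.154%, 0.0% and 0.105% for the pairs, in the same order, and 2.53% across the groups. These comparisons share libraries, and the 3 sets of values are not independent of each other.

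Batf, a partner of Jun and IRF proteins that is needed for T helper 17 and follicular helper cells, was lower in irradiated than in untreated arthritis. Its level was 6.30, 9.39 and 7.94 in the Ctrl libraries, 12.1, 9.60 and 10.6 in the CIA libraries, and 8.93, 7.31 and 4.46 in the CIA+THz libraries. Every CIA library was above every Ctrl library and above every CIA+THz library, while the CIA+THz and Ctrl libraries overlapped. The log2 fold change of Batf in CIA+THz versus CIA was -0.68 (standard error 0.26, 95% interval -1.31 to -0.06), a level 0.623 times that of CIA. Its unadjusted p was 0.0362 and its adjusted p was 0.346 by limma. Batf differed between CIA and Ctrl by a log2 fold change of 0.46 (standard error 0.20), with an unadjusted p of 0.0539 and an adjusted p of 0.297 by limma, which did not pass. In CIA+THz versus Ctrl it was -0.23 (standard error 0.28, 95% interval -0.89 to 0.43). The size of the decrease leaned on CIA+THz library 3, without which it was -0.40 with an unadjusted p of 0.0668 by limma, and the p also missed 0.05 without CIA+THz library 2 (0.0607) or without CIA library 1 (0.109), 2 (0.0536) or 3 (0.0803). With FPKM as deposited it was -0.41 with an unadjusted p of 0.203 by limma.

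Groups without overlap are common in these data, and the Batf pattern is to be read against that share. Between CIA and Ctrl the libraries did not overlap for 1 higher factor, Batf, and 1 lower factor, Eomes, beside 23.5% of all genes. Between CIA+THz and CIA they did not overlap for 1 lower factor, Batf, beside 10.2% of all genes that were lower without overlap, and in CIA+THz versus Ctrl for 1 lower factor, Bcl6, beside 12.0%.

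Bcl6, a repressor that drives follicular helper T cells and germinal centre B cells, was highest in control blood, by a margin that did not reach the criterion. It stood at 36.0, 27.0 and 32.9 in Ctrl, at 23.9, 26.1 and 27.1 in CIA, and at 24.4, 24.3 and 23.6 in CIA+THz. All 3 CIA+THz libraries were below every Ctrl library and lay close together, while the CIA libraries reached just above the lowest Ctrl library. Its F-test across the groups had an unadjusted p of 0.0283 and an adjusted p of 0.187 by limma. The log2 fold change of Bcl6 in CIA+THz versus Ctrl was -0.40 (standard error 0.13, 95% interval -0.70 to -0.10), with an unadjusted p of 0.0165 and an adjusted p of 0.183 by limma, smaller than the 0.67 the criterion asks. In CIA versus Ctrl it was -0.31 (standard error 0.14) and in CIA+THz versus CIA -0.09 (standard error 0.09), and neither passed. The F-test p missed 0.05 without Ctrl library 1 (0.116) or 3 (0.0816) and without CIA+THz library 1 (0.0528), 2 (0.0548) or 3 (0.0583). With FPKM as deposited the F-test p was 0.316, the log2 fold change of CIA+THz versus Ctrl shrank to -0.090 with an unadjusted p of 0.631 by limma, and that of CIA+THz versus CIA turned to 0.19. The neutrophil markers, cells that can also make Bcl6, summed to between 12452 and 21035 in Ctrl, 14598 and 19156 in CIA and 10706 and 12140 in CIA+THz, and all 13 stood lower in CIA+THz than CIA, with a median log2 fold change of -0.47. For CIA+THz versus Ctrl, 8 of the 13 were lower and 5 higher (median -0.49), with S100a8, Mmp8, Retnlg and Il1r2 passing as lower and Camp, Ltf and Ngp as higher. Their part in the Bcl6 values was not tested.

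Maf, a bZIP factor of follicular helper, T helper 2 and interleukin-10-making T cells, varied as much within groups as between them. Its levels were 3.69, 2.51 and 3.28 in Ctrl, 2.10, 3.30 and 2.40 in CIA, and 1.87, 2.74 and 2.03 in CIA+THz. Between CIA+THz and Ctrl the log2 fold change of Maf was -0.50 (standard error 0.27, 95% interval -1.12 to 0.13), and in CIA versus Ctrl -0.28 (95% interval -0.96 to 0.41). The groups overlapped in each comparison.

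Among the T helper 1 factors, Stat4 and Tbx21 overlapped between all groups. Stat4 was at 7.52, 6.63 and 5.49 in Ctrl, 5.75, 4.84 and 4.47 in CIA, and 6.37, 4.09 and 4.45 in CIA+THz. Its log2 fold change in CIA versus Ctrl was -0.37 (standard error 0.21, 95% interval -0.87 to 0.12), and in CIA+THz versus CIA it was -0.03 (95% interval -0.56 to 0.49). Tbx21 was at 2.56, 2.42 and 2.86 in Ctrl, 2.52, 1.62 and 1.70 in CIA, and 2.40, 1.27 and 3.33 in CIA+THz. The lowest and the highest Tbx21 value of the whole series were both in CIA+THz libraries. Tbx21 had a log2 fold change of -0.43 (standard error 0.29, 95% interval -1.12 to 0.26) in CIA versus Ctrl and 0.18 (95% interval -0.75 to 1.11) in CIA+THz versus CIA, and the latter interval includes changes of 0.67 in either direction.

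Eomes, which shapes cytotoxic T cells and mature NK cells, was highest in control blood. It was at 1.61, 1.11 and 2.24 in Ctrl, at 0.990, 0.941 and 0.926 in CIA, and at 1.13, 0.952 and 1.02 in CIA+THz. Every CIA library was below every Ctrl library, and the CIA libraries were nearly alike while the Ctrl libraries were spread. The log2 fold change of Eomes in CIA versus Ctrl was -0.68 (standard error 0.37, 95% interval -1.55 to 0.19), with an unadjusted p of 0.105 and an adjusted p of 0.385 by limma, which did not pass. The value leaned on single Ctrl libraries in both directions, being -0.92 with an unadjusted p of 0.0427 without Ctrl library 2 and -0.45 with an unadjusted p of 0.256 by limma without Ctrl library 3, the ends of the range when any library was left out. In CIA+THz versus CIA the log2 fold change of Eomes was 0.11 (standard error 0.27), with an unadjusted p of 0.705 by limma. All 10 NK cell markers that were tested were lower in CIA than in Ctrl, with a median log2 fold change of -0.98. In CIA+THz versus CIA all 10 NK cell markers stood higher, with a median of 0.61. Their summed level was between 276 and 331 in Ctrl, 130 and 226 in CIA, and 198 and 261 in CIA+THz, and the NK marker Klra8 was listed at 0 in every library. Their part in the Eomes and Tbx21 values was not tested, and in bulk blood fewer cells of a type cannot be told apart from less RNA per cell.

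Of the T helper 2 factors, Stat6 was the most even of the 9. It was at 55.5, 44.0 and 57.7 in Ctrl, 51.9, 64.1 and 61.2 in CIA, and 52.2, 51.0 and 49.6 in CIA+THz. The log2 fold change of Stat6 in CIA+THz versus CIA was -0.21 (standard error 0.10, 95% interval -0.46 to 0.04), with an unadjusted p of 0.0852 and an adjusted p of 0.438 by limma, and it was 0.068 with FPKM as deposited. CIA library 1 overlapped the CIA+THz libraries. Gata3 was at 1.62, 1.35 and 1.70 in Ctrl, 0.808, 1.92 and 0.859 in CIA, and 1.35, 1.60 and 1.08 in CIA+THz. The CIA group held both the lowest and the highest Gata3 value. Its log2 fold change in CIA versus Ctrl was -0.45 (standard error 0.42, 95% interval -1.43 to 0.53), the widest interval of the 9 in that comparison.

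Rora, a nuclear receptor that acts in T helper 17 cells and innate lymphoid cells, was at 2.85, 2.04 and 2.23 in Ctrl, 4.46, 2.17 and 2.86 in CIA, and 2.47, 2.30 and 1.28 in CIA+THz. Its highest value was in CIA library 1 and its lowest in CIA+THz library 3, and the groups overlapped. Rora had, for CIA+THz versus CIA, a log2 fold change of -0.62 (standard error 0.37, 95% interval -1.49 to 0.26), with an unadjusted p of 0.138 and an adjusted p of 0.512 by limma. It was -0.35 with FPKM as deposited (unadjusted p 0.383 by limma), -0.35 without CIA library 1 (0.384) and -0.34 without CIA+THz library 3 (0.389), and after removal of each library's dependence on GC content it was -0.83 with an unadjusted p of 0.0445 by limma, which passed.

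**Figure D2:**
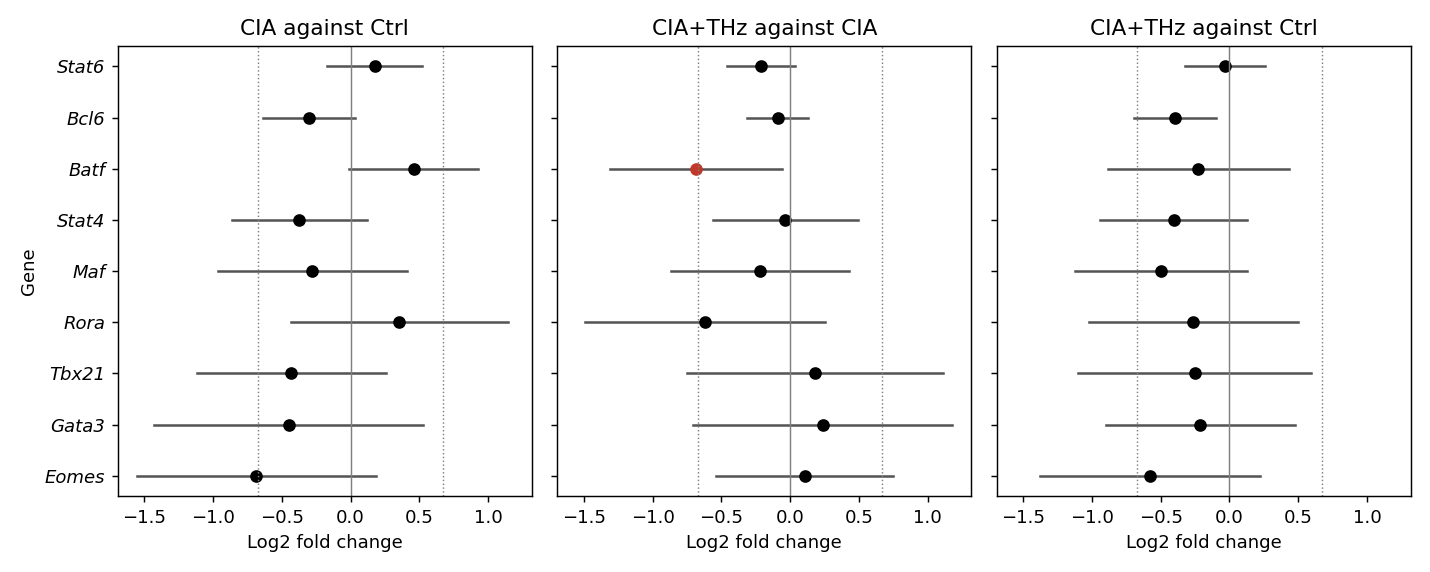
Log2 fold changes of the 9 factors in the 3 comparisons, with 95% intervals from limma; the dotted lines mark 0.67 in either direction. Batf in CIA+THz versus CIA, in red, at -0.68, is the one factor that passed the criterion, and most intervals include 0.

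As a group, the members leaned lower, by amounts within the error of most of them. Their median log2 fold change was -0.31 in CIA versus Ctrl, -0.09 in CIA+THz versus CIA and -0.26 in CIA+THz versus Ctrl, where the medians of all genes tested were -0.0051, 0.025 and 0.039. For CIA versus Ctrl 3 members were higher and 6 lower, beside 50.7% of all genes below 0, and for CIA+THz versus CIA the split was also 3 and 6, beside 47.1%. All 9 were below 0 for CIA+THz versus Ctrl, beside 46.3% of all genes. That split depended on the scaling, since with FPKM as deposited 5 of the 9 were above 0 in CIA+THz versus Ctrl and 7 of the 9 in CIA+THz versus CIA.

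In the ratio of 2 members of a library the scaling factor cancels except for the pseudocount of 0.1, and 4 ratios were compared over the 3 pairs of groups with exact two-sided permutation tests, in which 3 libraries against 3 cannot give a p below 0.1. The Ctrl libraries had a log2 ratio of Tbx21 to Gata3, the classical pair of T helper 1 and T helper 2 factors, of 0.72 ± 0.088 (SD, n = 3), the CIA libraries of 0.74 ± 0.89 and the CIA+THz libraries of 0.68 ± 0.93. The means were close, and both arthritis groups were more spread than Ctrl. In CIA the ratio was 1.53, -0.23 and 0.91 in the 3 libraries, and in CIA+THz it was 0.79, -0.31 and 1.54. Stat4 to Stat6 gave a log2 ratio of -2.98 ± 0.34 for Ctrl, -3.53 ± 0.33 for CIA and -3.36 ± 0.31 for CIA+THz. Its difference between CIA and Ctrl, -0.55 (standard error 0.28), had an exact permutation p of 0.2 and an adjusted p of 1. Tbx21 to Eomes and Bcl6 to Maf overlapped between all groups too. The exact permutation p was between 0.2 and 1 over the 12 comparisons, and every adjusted p was 1.

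T cell markers moved between the groups, and the factors were therefore also read against them. All 15 markers tested were lower in CIA than in Ctrl, with a median log2 fold change of -0.30, and all 15 stood higher in CIA+THz than CIA, with a median of 0.33. Their summed level was between 529 and 621 in Ctrl, 441 and 482 in CIA, and 528 and 703 in CIA+THz. Relative to the mean log2 of these markers, Batf was at -2.30, -2.01 and -2.21 in Ctrl, at -1.26, -1.49 and -1.32 in CIA, and at -2.17, -2.27 and -2.78 in CIA+THz. On this scale Batf differed by 0.81 (standard error 0.11) in CIA versus Ctrl and by -1.05 (standard error 0.20) in CIA+THz versus CIA. No CIA library overlapped either other group. Both gaps were wider than for Batf itself, but the marker mean was lowest for the CIA group, at 4.79, beside 5.15 (Ctrl) and 5.16 (CIA+THz). Subtracting it shifts the group differences of every gene by the same amount, so the widening says nothing about Batf in particular. Rora, at -2.69, -3.58 and -3.18 in CIA, was at -3.99, -3.90 and -4.51 in CIA+THz, a difference of -0.99 (standard error 0.32) without overlap.

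On this scale 6 of the 9 factors stood lower in CIA+THz than CIA without overlap, namely Batf, Rora, Stat6 (-0.58), Bcl6 (-0.46), Stat4 (-0.40) and Eomes (-0.26), beside 29.1% of all genes. The means of all 9 were lower, beside 78.2% of all genes, since the markers themselves were higher. For CIA versus Ctrl 2 factors, Batf and Stat6 (0.53), were higher without overlap, beside 29.1% of all genes, and in CIA+THz versus Ctrl the count was 0, beside 15.5%. Each difference without overlap had an exact permutation p of 0.1, the smallest possible, and an adjusted p of 0.338 over 27 comparisons. With Cd3d, Cd3e and Cd3g alone as markers the counts were 3 in CIA+THz versus CIA and 1 in CIA versus Ctrl. The share of all genes with these 3 markers was not computed, so these counts cannot be set against it. The 9 values of a library share the same marker mean and are not independent of each other.

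**Figure D3:**
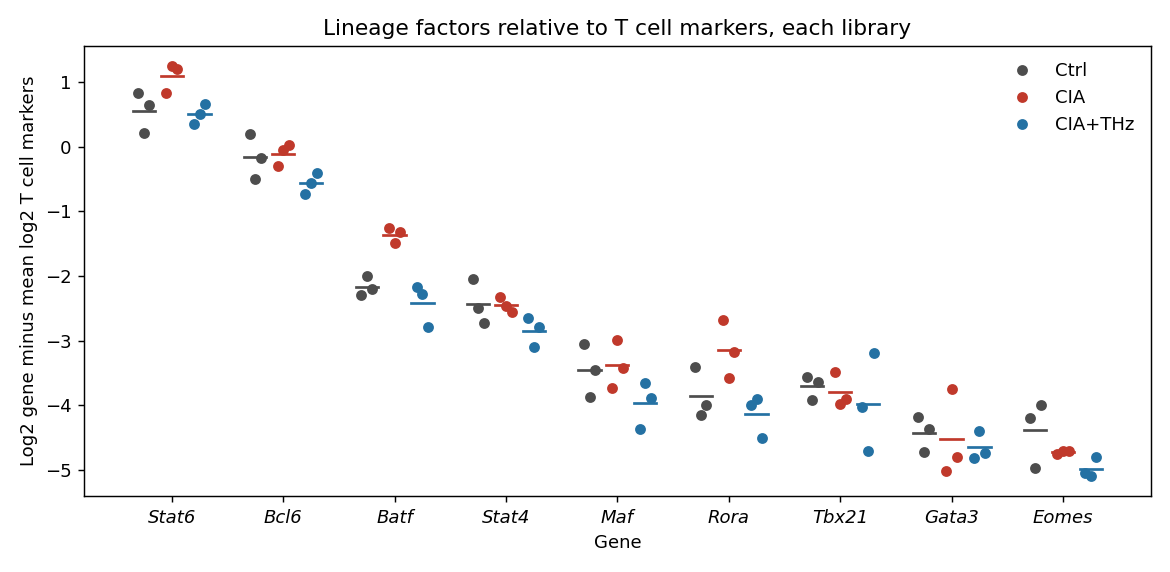
Log2 level of each factor minus the mean log2 level of 15 T cell markers, for each library; lines are group means. Batf in CIA, between -1.49 and -1.26, stands above both other groups, and Rora, Stat6, Bcl6, Stat4 and Eomes in CIA+THz lie below CIA.

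Monocyte markers also moved, and myeloid cells make Stat6 as well. All 13 were higher in CIA than in Ctrl, with a median log2 fold change of 1.12, and 12 of 13 stood lower in CIA+THz than CIA, with a median of -0.34. Their summed level was between 794 and 847 in Ctrl, 1348 and 1569 in CIA and 1090 and 1157 in CIA+THz. By group mean CIA was the highest group for these markers as it was for Batf, Stat6 and Rora, and their part in the values of these factors was not tested. Among 15 genes made in most cell types, such as Actb and Gapdh, 12 were higher and 3 lower in CIA than in Ctrl (median 0.24). In CIA+THz versus CIA 3 of these 15 were higher and 12 lower (median -0.098). A shift shared by such genes was not tested either.

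Genes that act beside the factors in each lineage were followed from lists of cytokines, receptors and partner factors. The shares of all genes that passed were 9.04% in CIA versus Ctrl, 4.54% in CIA+THz versus CIA and 7.88% in CIA+THz versus Ctrl. Counts from these lists are to be read beside those shares. The hallmark cytokines were near or at 0 in this blood. Ifng, the T helper 1 cytokine, was listed at 1.15, 0 and 0 in Ctrl, at 0 in all CIA libraries, and at 0.182, 0.255 and 0 in CIA+THz. Il4, the T helper 2 cytokine, was listed above 0 only in CIA+THz library 1, at 0.0815, and Il17a, the T helper 17 cytokine, was listed at 0 in all 9 libraries. Il21, the follicular helper cytokine, was listed at 0 in every Ctrl and every CIA library and at 0.179, 0.258 and 0.279 in CIA+THz. Detection also differed between the groups. Between 12449 and 12807 genes were above 0 in the CIA+THz libraries, beside 11816 to 12264 in Ctrl and 11801 to 12066 in CIA. A 0 beside such a low value therefore cannot be told apart from a difference in detection. Il4, Il17a and Il21 were under the minimum level and were not tested.

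In the T helper 1 list 14 of 15 genes were tested. Between CIA and Ctrl 1 passed as higher, Lta, and 2 as lower, Tnf and Il12rb2, beside 9.04% of all genes. The list median was 0.086. Il12rb2, the receptor chain through which interleukin-12 reaches Stat4, was at 2.09, 1.46 and 2.36 in Ctrl and at 0.638, 0.702 and 0.562 in CIA, a log2 fold change of -1.47 with a standard error of 0.36 and an adjusted p of 0.119 by limma. It was at 1.89, 1.30 and 0.711 in CIA+THz, all above the CIA libraries, but did not pass in that comparison. Lta, a secreted relative of TNF, had a log2 fold change of 0.97 and Tnf of -0.78. None of the list, 0 genes, passed for CIA+THz versus CIA, and in CIA+THz versus Ctrl Havcr2, an inhibitory receptor of T helper 1 cells, passed as higher (1.29) and Tnf as lower (-1.35). The list held genes that moved both ways beside a Tbx21 that did not pass.

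In the T helper 2 list 9 of 16 genes were tested. Nfil3, a bZIP factor, passed as higher between CIA and Ctrl, at 9.02, 12.1 and 7.19 in Ctrl and 12.6, 16.8 and 18.9 in CIA, a log2 fold change of 0.78 (adjusted p = 0.19 by limma). Gfi1, a zinc finger repressor that favours T helper 2 cell growth, passed as higher between CIA+THz and CIA, at 0.258, 0 and 0.270 in CIA and 1.05, 0.541 and 0.691 in CIA+THz. The count was 0 for CIA+THz versus Ctrl.

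In the T helper 17 list 12 of 16 genes were tested. Between CIA and Ctrl 2 passed as higher, Il23r and Ahr, and Runx1 passed as lower, beside 9.04% of all genes. Ahr, a ligand-sensing factor of T helper 17 cells, was at 6.67, 5.31 and 4.14 in Ctrl, at 11.9, 12.4 and 15.9 in CIA and at 10.6, 13.8 and 11.1 in CIA+THz. Its log2 fold change was 1.32 for CIA versus Ctrl, with a standard error of 0.23 and an adjusted p of 0.0669 by limma, and 1.14 for CIA+THz versus Ctrl, with a standard error of 0.21 and an adjusted p of 0.0892 by limma, and both arthritis groups were wholly above Ctrl. Il23r, the receptor chain that maintains T helper 17 cells, was at 0.687, 0 and 0 in Ctrl, 3.12, 0.857 and 1.24 in CIA, and 1.27, 0.264 and 1.12 in CIA+THz. With Ctrl values of 0, the size of the Il23r change also depends on the pseudocount of 0.1. Runx1, a partner of several lineage factors, had a log2 fold change of -0.74 in CIA versus Ctrl. The count that passed for CIA+THz versus CIA was 0. After adjustment 0 genes of the T helper 17 list passed between any pair of groups, and 1 passed across the 3 groups, beside 2.53% of all genes.

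In the follicular helper list 15 of 16 genes were tested, and this list had the largest lean of the 4 lineage lists in CIA+THz versus CIA. Of these, 12 were lower and 3 higher in CIA than in Ctrl (median -0.25), and 12 stood higher and 3 lower in CIA+THz than CIA (median 0.33), and T cell markers had the same median there. B cell markers moved in the same direction, 12 of 13 standing higher in CIA+THz than CIA (median 0.29) and 13 of 13 higher than in Ctrl (median 0.55), with a summed level between 584 and 698 in Ctrl, 640 and 866 in CIA, and 779 and 1025 in CIA+THz. The part of T and B cells in the values of this list was not tested. Cd40lg, the ligand by which helper cells activate B cells, was at 2.06, 2.13 and 1.78 in Ctrl, 0.473, 0.786 and 1.10 in CIA, and 2.05, 1.74 and 1.90 in CIA+THz. It passed as lower in CIA versus Ctrl (log2 fold change -1.30, adjusted p = 0.176 by limma) and as higher in CIA+THz versus CIA. Tnfrsf4, the costimulatory receptor OX40, passed as lower in CIA versus Ctrl (-1.70), and Btla, an inhibitory receptor also made by B cells, passed as higher in CIA+THz versus CIA. Tox2 passed as lower for CIA+THz versus Ctrl (-1.53), at 0.329, 0.456 and 0.0867 in Ctrl and 0.0866, 0 and 0 in CIA+THz. Ascl2 passed as lower there too, listed at 0 in all CIA+THz libraries and at 0.174, 0.180 and 0.137 in Ctrl. Levels of both lay near the pseudocount of 0.1, on which the size of these changes depends. Bcl6, the lineage factor of these cells, had its lowest median in CIA+THz, where Cd40lg was above its CIA level. The Bcl6 difference between CIA+THz and CIA was small, however, at -0.09 (standard error 0.09), with overlapping groups. With FPKM as deposited it turned to 0.19.

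**Figure D4:**
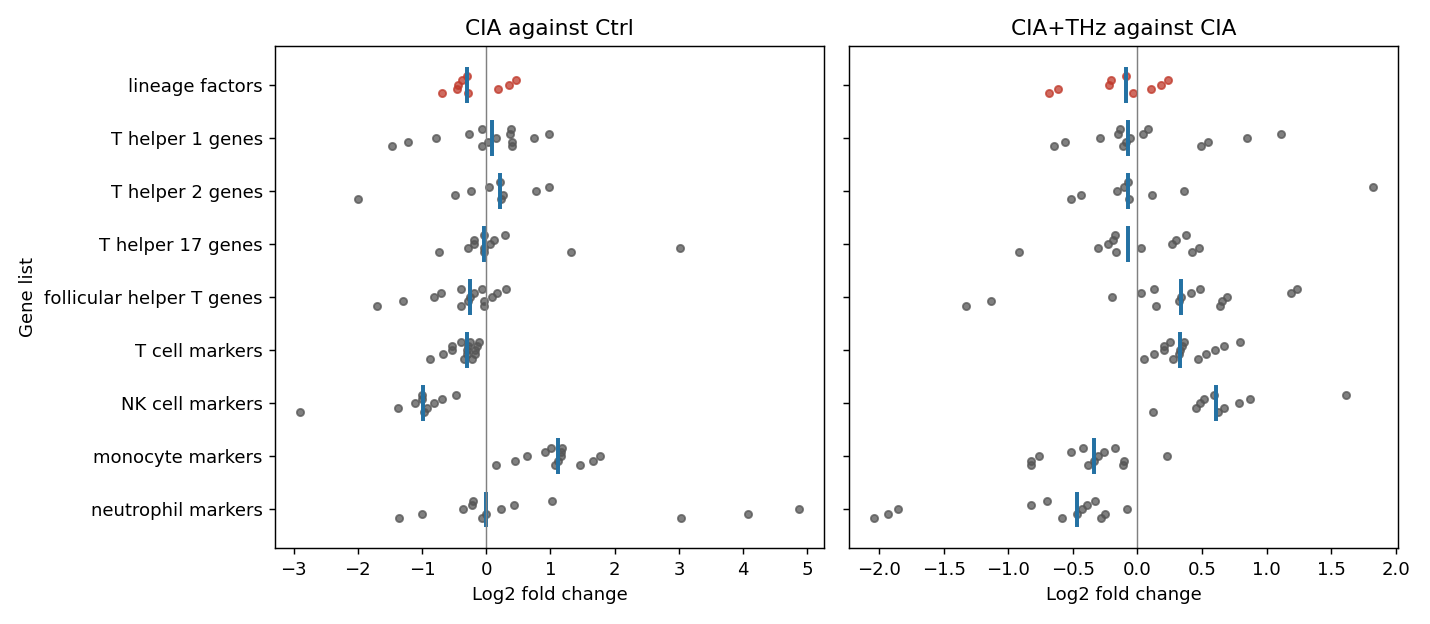
Log2 fold changes of the 9 factors (red) and of lineage and cell marker lists (grey) in CIA versus Ctrl and in CIA+THz versus CIA; points are genes and blue lines are list medians. The medians of T cell markers, -0.30 and 0.33, and of NK cell markers, -0.98 and 0.61, change side between the panels, and the factors have medians of -0.31 and -0.09.

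Among 38 other transcription factors of T helper cells, 2 passed as higher (Nfil3 and Ahr) and 2 as lower (Runx1 and Jund) in CIA versus Ctrl, 1 passed as higher (Gfi1) in CIA+THz versus CIA, and Ahr passed as higher and Jund as lower in CIA+THz versus Ctrl. Beside these counts, 9.04%, 4.54% and 7.88% of all genes passed, in the same order. The list medians were -0.043, 0.095 and 0.066, beside -0.0051, 0.025 and 0.039 for all genes tested. Jund, an AP-1 subunit with which Batf can pair, stood apart within its groups, at 30.9, 30.7 and 26.4 in Ctrl, 0.647, 0.831 and 29.1 in CIA, and 0.737, 1.06 and 24.5 in CIA+THz. CIA library 3 and CIA+THz library 3 were at or near the Ctrl level, and the other 4 arthritis libraries were far below it. After adjustment 0 genes of this list passed between any pair of groups, and 2 passed across the 3 groups, beside 2.53% of all genes.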

How the data were processed

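Total blood RNA was sequenced as paired ends on an Illumina HiSeq. The authors deposited 1 table of FPKM for 20926 gene symbols in 9 libraries, and the submitters' processing notes name bcl2fastq 2.0, HISAT2, StringTie, DESeq2 and mm10 without roles. Strand handling is not given in the sources used here. Absolute depth is unknown, since FPKM holds no counts. Columns were put on a common scale with median-of-ratios factors, taken from the 10312 genes with no 0. Genes with a mean of at least 0.1 (12366) were tested on log2(rescaled FPKM + 0.1), a scale that understates changes of low genes, with limma 3.58.1 (trend) in R 4.3.3, each pair on its 6 libraries. Thresholds are those the study applied. The scripts were tested on simulated data. Coordinates are from GENCODE M21 (GRCm38).

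The members and lists were chosen with earlier results of these data known. The genes named are the 9 members, every lineage list gene that passed between a pair of groups, Ifng, Il4, Il17a and Il21, and for each member the 2 genes with the highest Pearson correlation. Alternatives were FPKM as deposited, upper-quartile scaling, other pseudocounts and minimums, no trend, a GC correction, a joint fit, a linear analysis of variance, the replicate block, the adjustment and leaving out each library. Some marker genes were not analysed here, and 1 gene of the lists is not reported here and was left out of their counts and medians.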

Additional observations from a re-analysis of the deposited data

How the results depend on the processing

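Groups of 3 libraries, an unknown read depth and levels under 3 rescaled FPKM for 5 of the factors limit these results. The count of factors that passed in CIA+THz against CIA, 1 as reported, was 0 with FPKM as deposited, with a pseudocount of 1, with no minimum, with no trend and after adjustment, and 2 after the GC correction (Batf and Rora). It was between 0 and 1 when a library was left out, and Batf passed only without CIA+THz library 1, its log2 fold change lying between -0.90 and -0.40. In CIA against Ctrl the count was 1 with no trend (Eomes) and between 0 and 1 when a library was left out, and in CIA+THz against Ctrl it was between 0 and 1, Eomes passing in both without Ctrl library 2. Across the 3 groups the count was 0 with FPKM as deposited and after adjustment, and between 0 and 2 when a library was left out. With no trend it stayed at 1, but Bcl6 no longer passed (p 0.0666) and Eomes did (p 0.0386 by limma). Bcl6 also missed a p under 0.05 there without Ctrl library 1 or 3 or any CIA+THz library. Over all 9 leave-outs its p was between 0.00553 and 0.116 by limma. With FPKM as deposited the following turned sign: Bcl6 0.19, Maf 0.048, Stat4 0.24 and Stat6 0.068 in CIA+THz against CIA, and Batf 0.077, Gata3 0.075, Rora 0.030, Stat6 0.27 and Tbx21 0.041 in CIA+THz against Ctrl. The whole table moved with this setting, from 561 to 1199 and from 975 to 1720 genes passed in these comparisons, and a pseudocount of 1 left 283 genes in the first. With adjustment 19, 0, 13 and 313 genes passed in CIA against Ctrl, CIA+THz against CIA, CIA+THz against Ctrl and across the groups. Without Ctrl library 3 1487 genes passed in CIA+THz against Ctrl. The cause of these shifts was not tested.

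With a pseudocount of 1 the log2 ratio of Tbx21 to Gata3 became -0.054 in CIA against Ctrl and 0.020 in CIA+THz against CIA, and that of Bcl6 to Maf -0.012 in CIA+THz against Ctrl. Leaving out a library, Stat4 ranged between -0.22 and 0.091 and Tbx21 between -0.12 and 0.54 in CIA+THz against CIA, and Batf between -0.44 and 0.055, Rora between -0.43 and 0.019, Stat6 between -0.15 and 0.042 and Tbx21 between -0.55 and 0.11 in CIA+THz against Ctrl. The ratio of Tbx21 to Gata3 ranged between -0.38 and 0.50, -0.54 and 0.43, and -0.47 and 0.45 in CIA against Ctrl, CIA+THz against CIA and CIA+THz against Ctrl, that of Tbx21 to Eomes between -0.23 and 0.38 in CIA+THz against CIA, and that of Bcl6 to Maf between -0.11 and 0.14, -0.039 and 0.28, and -0.015 and 0.25 in the same order. The counts relative to T cell markers ranged between 2 and 4, 6 and 7, and 0 and 4 when a library was left out. With the Cd3 genes alone they were 1 and 3 in the first and second comparison. The shares of all genes were not computed for these settings, and groups with fewer libraries separate more easily. Of 459 values of single factors between pairs of groups, 281 and, with a library left out, 146 kept their direction and their side of the threshold.

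Replicate numbers do not mark shared animals, and deviations of same-numbered libraries correlated between -0.052 and 0.031. With the replicate block 0, 1, 0 and 1 factors passed in the 4 comparisons, as without it, and 1073, 506, 967 and 2399 genes of the whole table.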

Other observations

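For each factor the genes whose levels ran most alike over the 9 libraries were listed among 9747 genes with a mean of at least 1 rescaled FPKM. These are descriptions over libraries that share groups and scaling, and with so many genes and so few libraries high values of Pearson's r occur for any gene. For Batf they were Rnaset2a (0.938) and Slx4ip (0.908), and for Bcl6 Dnmbp (0.962) and Igf1r (0.955). For Stat6 they were Hdac6 (0.964) and Fmnl1 (0.957), and for Stat4 Rnf146 (0.926) and Loxl1 (0.918). For Tbx21 they were Ap4s1 (0.936) and Ap4b1 (0.894), and for Eomes St3gal6 (0.978) and Gtpbp2 (0.931). For Gata3 they were Ppih (0.968) and Pdcd2 (0.916), for Rora Mettl21a (0.920) and Leng1 (0.884), and for Maf Bean1 (0.903) and Ssh2 (0.888). Among the factors themselves Bcl6 ran most alike with Eomes (0.812) and Maf (0.789), and Rora with Batf (0.743), while Tbx21 and Batf had the lowest value (-0.378).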
